A study of Caenorhabditis elegans with 2 samples.

Results

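Small nucleolar RNA (snoRNA) genes of the nematode Caenorhabditis elegans, and the protein-coding genes that contain them, are described here by where peaks of tagged ZK546.5 lay around them. The members are the annotated snoRNA genes with at least 1 peak summit of the pooled list between 1000 bp upstream and 200 bp downstream of their 5′ end, and 193 of 346 annotated snoRNA genes met this rule. They were therefore selected on the peak lists themselves, and the presence and signal of their peaks are given as a description, with no test. A member is called thresholded where a summit of the authors' thresholded list also lay in that window, which held for 37 of the 193. Of the 346 genes, 183 lay inside a protein-coding gene on the same strand, 33 inside one on the opposite strand and 130 in no protein-coding gene, called free-standing.

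Small nucleolar RNAs guide the chemical modification of ribosomal RNA in the nucleolus. Those of the C/D type direct 2′-O-methylation by a particle that contains fibrillarin, and those of the H/ACA type direct pseudouridylation by a particle that contains dyskerin. Many are encoded in introns of protein-coding genes, often genes of the translation machinery, and are released from the spliced-out intron of the host message, while others are transcribed from promoters of their own. In animals the genes of the spliceosomal small nuclear RNAs (snRNAs) carry a promoter element close upstream of the start of transcription, the proximal sequence element, which is also found at some independently transcribed snoRNA genes.

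ZK546.5 has a C2H2-type zinc finger. Chromatin immunoprecipitation and sequencing (ChIP-seq) was done on whole L2 larvae, both sexes pooled, of strain OP231, whose genotype is given as unc-119(ed3) III; wgIs231 and whose transgene wgIs231 stably expresses ZK546.5 with GFP-FLAG at its C-terminus. The 2 biological replicates form 1 group of this single line, so no group is compared with another, and a peak does not tell which cell types of the worm it came from. The antibody is named in the labels by its target alone, the age is given as unknown, the control library was not analysed here, and read depth is not given in the sources used here. On genome build ce11 there were 491 thresholded peaks, 30000 pooled peaks, 19076 in replicate 1 and 30000 in replicate 2.

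Sequences at 2 kinds of snoRNA peak are shown first. At 10 of the 37 thresholded snoRNA genes the annotated 5′ end nearest to the summit was that of the snoRNA gene, and the 90 bases upstream of 6 of these 10 are printed 5′ to 3′ on the gene's strand, from the WBcel235 reference sequence. Capitals mark the words GCGGAACCC and TGTCGG, with up to 2 differing letters in the first, and the last base of each line adjoins the snoRNA gene. The intervals are chrII:15025894-15025983 (minus strand) for Y53F4B.47, chrV:8500489-8500578 (plus) for ZK994.7, chrV:8349018-8349107 (plus) for C08D8.3 and chrIV:9511467-9511556 (minus) for smy-2. M7.15 at chrIV:11083057-11083146 (plus) and F09G2.14 at chrV:7196581-7196670 (minus) hold neither word and are shown for contrast.
Y53F4B.47: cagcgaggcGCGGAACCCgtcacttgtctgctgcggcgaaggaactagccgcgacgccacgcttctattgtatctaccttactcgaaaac
ZK994.7: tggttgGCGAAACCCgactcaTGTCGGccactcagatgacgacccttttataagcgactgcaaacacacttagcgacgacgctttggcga
C08D8.3: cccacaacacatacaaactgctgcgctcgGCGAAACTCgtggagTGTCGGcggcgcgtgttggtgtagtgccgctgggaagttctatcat
smy-2: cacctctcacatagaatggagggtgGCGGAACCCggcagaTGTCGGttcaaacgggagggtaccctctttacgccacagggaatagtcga
M7.15: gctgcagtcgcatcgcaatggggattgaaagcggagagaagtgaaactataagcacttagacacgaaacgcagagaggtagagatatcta
F09G2.14: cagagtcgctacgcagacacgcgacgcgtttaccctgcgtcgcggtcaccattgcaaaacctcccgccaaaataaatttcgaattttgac

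The other kind of peak lay in front of a host gene. As examples, the 101 bases centred on the summit are given on the host's strand for ubl-1, which contains H06I04.8 and H06I04.9 (chrIII:3068055-3068155, plus strand), and for rps-12, which contains F54E7.10 and F54E7.11 (chrIII:5679071-5679171, plus strand). Capitals mark CGCG, a word that reads the same on both strands.
ubl-1 summit: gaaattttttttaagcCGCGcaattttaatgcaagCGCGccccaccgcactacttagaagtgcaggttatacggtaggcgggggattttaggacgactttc
rps-12 summit: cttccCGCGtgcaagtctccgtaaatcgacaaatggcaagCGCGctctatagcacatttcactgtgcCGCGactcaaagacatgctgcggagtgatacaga

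Of the 193 members, 37 (19.2%, exact 95% interval 13.9 to 25.4) had a thresholded summit in the window. The same share over all genes with a pooled summit in their window was 4.59% (803 of 17485), and over the protein-coding ones 7.08% (578 of 8159). Both the members and their calls come from these lists, so nothing is read from that difference. The small nuclear RNA genes, another non-coding class, had a thresholded summit at 9 of 50, or 18%. The remaining 156 members had sub-threshold summits, and 153 annotated snoRNA genes had no pooled summit and are not members; one of these is ZK546.18, which lies in mdt-4.

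The 37 genes shared 30 distinct peaks, 6.11% of the thresholded list, since 7 peaks each lay in the windows of 2 snoRNA genes. Genes that share a peak are therefore not separate observations. By signal, the 30 peaks ranked from 13 to 476 in the thresholded list. Their median signal was 74.4 (47.1 to 1657), against 74.6 over all 491, and 7 of the 30 were among the list's 50 strongest. Signal is the authors' value for each peak and ranks peaks within a list. By chromosome, 10 of 49 members were thresholded on I, 4 of 30 on II, 10 of 30 on III, 8 of 38 on IV, 4 of 33 on V and 1 of 13 on X. The share over all genes of each chromosome is not given here, and some members share peaks. No difference between chromosomes is therefore read from these counts.

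Split by location, 29 of 103 members inside a same-strand host were thresholded (28.2%, 19.7 to 37.9), 1 of 18 inside an opposite-strand host (5.56%) and 7 of 72 free-standing members (9.72%, 4.0 to 19.0). The strongest summits belonged to hosted genes. Among thresholded members the median signal was 215.8 inside same-strand hosts (48.7 to 1657) and 48.8 at free-standing genes (47.1 to 147.6). These medians are over genes. The 7 peaks with 2 snoRNA genes all lay at same-strand hosts and count once per gene, which puts that median above the one over distinct peaks. Below the threshold the classes overlapped throughout, with medians of 19.1 and 18.0 and highest values of 44.2 and 44.8.

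**Figure D1:**
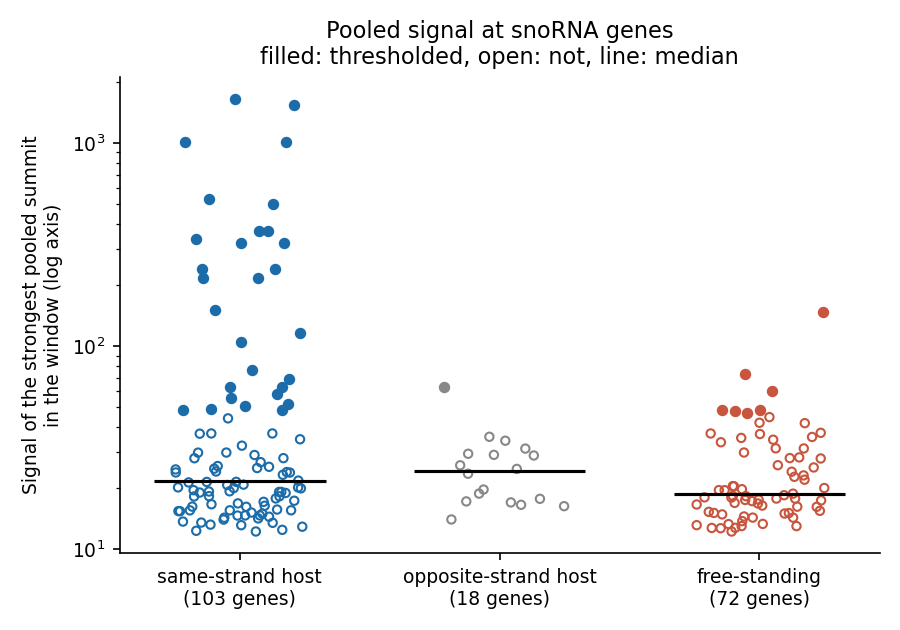
Signal of the strongest pooled summit in the window of each of the 193 members (log axis), by location of the snoRNA gene; filled points are thresholded genes, open points are not, and lines are medians over all members of a class. Free-standing members reach 147.6 and same-strand hosted ones 1657, while the open points of the classes overlap.

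At the threshold itself, the weakest thresholded members were all free-standing: F59C6.15 with a pooled signal of 47.1, C26C6.13 with 48.2 and Y53F4B.47 with 48.4. Just below it came the free-standing C34E11.20 on X (44.8), then C02F5.15 on III (44.2), which lies inside both rfs-1 and fbxl-1, and the free-standing F25H2.15 on I (42.0), ZK20.9 on II (41.8) and C36E8.11 on III (37.5). The lowest signal in the whole thresholded list was 45.9, so the pairs on either side of it differ little in signal. C34E11.20, ZK20.9 and C36E8.11 had their summits at 44, -25 and -17 bp from their own 5′ ends (negative values lie upstream), as close as any thresholded free-standing gene.

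The 10 strongest peaks of snoRNA genes all belonged to hosted genes. The strongest of them, with a pooled signal of 1657 and rank 13, spanned chromosome I 14759308 to 14759760 and had its summit at -129 bp from F39B2.14, at -68 bp from its host tmem-107 and at -389 bp from rps-26, a small-subunit ribosomal protein gene that neighbours it. Its signal was 1002 in replicate 1 and 663 in replicate 2, and its rank was 13 in each list. F28D1.13 lies in an intron of rps-23, another small-subunit gene on chromosome IV, and its summit (signal 1532, rank 17) was at -278 bp from the host and at -256 bp from the divergent gene dpm-3, but at -676 bp from the snoRNA gene. The replicate signals were 899 and 644, both at rank 16.

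H06I04.8 and H06I04.9 lie in introns of ubl-1, which encodes a ubiquitin-like domain fused to a small-subunit ribosomal protein, and the summit (signal 1016, rank 21) stood at -205 bp from ubl-1 and at -701 and -381 bp from the snoRNA genes. The replicates gave 630 at rank 20 and 387 at rank 22. F54C9.12 in iff-2, which encodes the translation factor eIF5A, followed with 533, at -72 bp from the host and -667 bp from the snoRNA gene (replicates 321 and 218, ranks 40 and 37). In each of these hosts the summit was closer to the host's 5′ end than to the snoRNA gene.

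C06A1.9 in cdc-48.1, an AAA ATPase gene, had a summit of signal 503 (replicates 294 and 213, ranks 41 and 40) at -179 bp from the host. The rpl-15 peak, over K11H12.12 and K11H12.13, had 371 (231 and 144, ranks 47 and 48), and the peak at akir-1, with E01A2.9, had 338 (198 and 145, ranks 49 and 47). The akir-1 summit was at -511 bp from akir-1 but at -48 bp from the neighbouring gene E01A2.1. The rps-12 peak had 321 (190 and 129, rank 50 in both), and its nearest coding 5′ end was that of ska-3, a kinetochore gene, at -116 bp, with rps-12 at -177 bp. The rpl-7A peak, with Y24D9A.9 and Y24D9A.10, had 239 (155 and 89.2, ranks 64 and 73), and the rpl-6 peak, with R151.11 and R151.12, had 216 (129 and 82.4, ranks 78 and 77). Among these 10 strongest peaks no rank differed between the replicate lists by more than that of rpl-7A.

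Among thresholded members inside a protein-coding gene, 28 of 30 had their summit in the host's own window too, and 17 of these 28 lay in 11 cytosolic ribosomal protein genes. Measured from the host, the summit stood at a median of -225.5 bp (-511 to -29); measured from the snoRNA gene, at a median of -559.5 bp (-925 to 99). The snoRNA gene itself began a median of 218.5 bp (53 to 1536) from the nearest upstream 5′ end of any host transcript. That end can differ from the one the summit was measured from: F54C9.12 began 192 bp from it, with its summit at -667 bp. The snoRNA gene lay in the first host intron for 11 of the 28, in a later intron for 15 and across a host exon for 2. Over all 37 thresholded genes, the annotated 5′ end closest to the summit was the snoRNA gene's at 10, the host's at 15 and that of some other gene at 12.

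**Figure D2:**
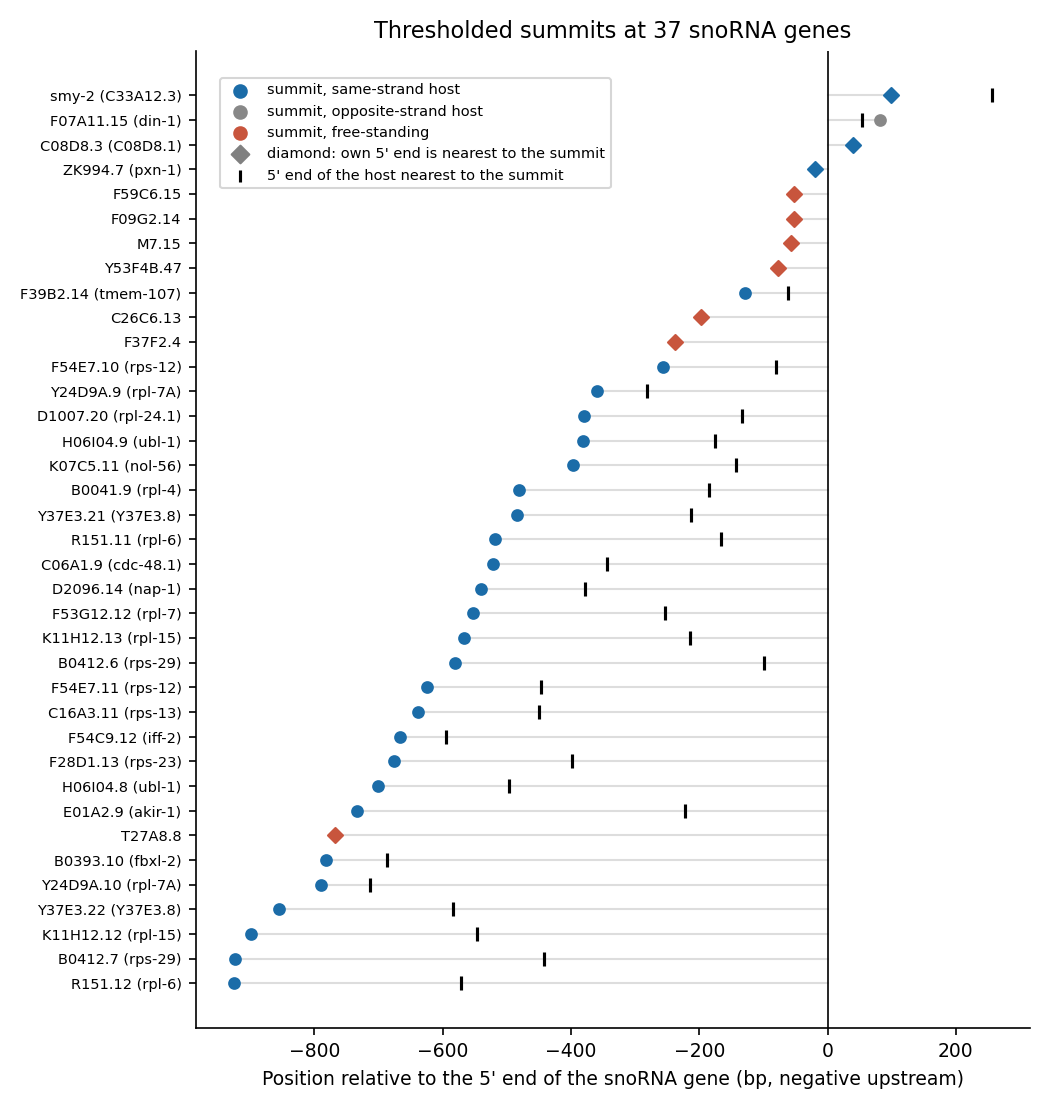
Position of the thresholded summit from the 5′ end of each of the 37 snoRNA genes (bp, negative upstream), with host names in brackets; points are summits, diamonds mark genes whose own 5′ end is the nearest one, and ticks mark the host's 5′ end closest to the summit where it is within the plot. Most hosted genes have the tick between the summit and the snoRNA gene.

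The distance of the snoRNA gene from the start of its host limits whether a summit before the host can fall in the snoRNA window. The 183 same-strand hosted genes began a median of 1481 bp from the nearest upstream 5′ end of the host. Within 250 bp of it, 14 of 24 had a thresholded summit (58.3%, 36.6 to 77.9), and from there to 500 bp 8 of 15 did (53.3%, 26.6 to 78.7). From there to 1000 bp the count was 4 of 27 (14.8%), and beyond 1000 bp 3 of 117 (2.56%, 0.532 to 7.31). The host's own window held a thresholded summit for 14 of 24, 8 of 15, 8 of 27 (29.6%) and 19 of 117 (16.2%, 10.1 to 24.2) of the same genes. Ribosomal protein hosts were unevenly spread over these bands, at 9, 7, 5 and 0 genes, and their part in the difference between bands was not tested.

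**Figure D3:**
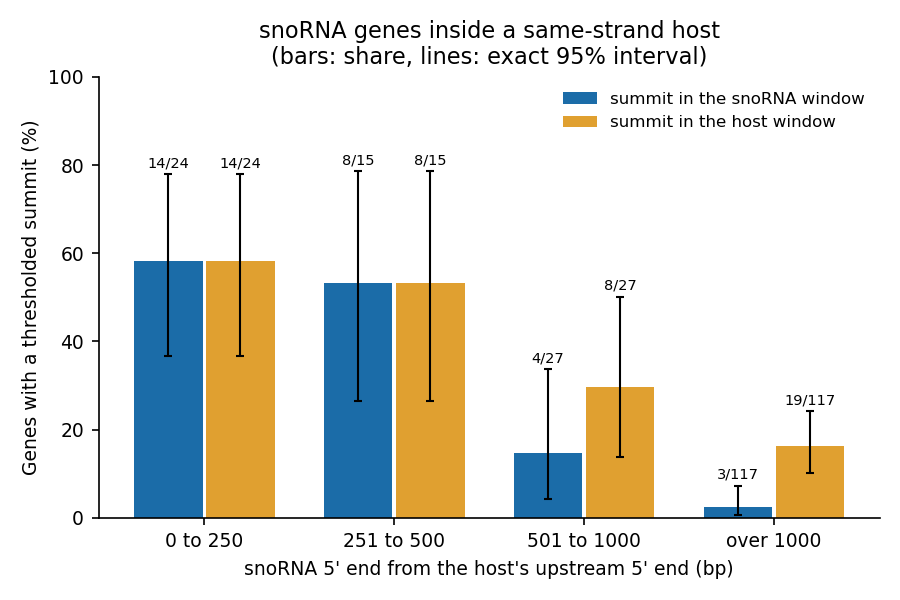
Share of the 183 same-strand hosted snoRNA genes with a thresholded summit in their own window (blue) and in the window of their host (orange), by the distance of the snoRNA gene from the nearest upstream 5′ end of the host; bars are shares, lines exact 95% intervals, and labels counts. The shares are equal up to 500 bp and part beyond it.

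Of 49 same-strand hosted genes whose host had a thresholded summit, 27 had it in their own window and 22, in 16 hosts, did not. These 22 began 619 to 9730 bp from the nearest upstream 5′ end of the host (median 1445.5). The host with the strongest signal, wwp-1 (3454), a HECT-type ubiquitin ligase gene, contains Y65B4BR.12 at 1964 bp, and that snoRNA gene is a member through a pooled summit of 21.4. In prp-8, the gene of a core spliceosome protein (627), C50C3.13 and C50C3.14 lie at 1167 and 3870 bp. The type II topoisomerase gene top-2 (163) contains K12D12.6, K12D12.7 and K12D12.8 at 1312 to 1483 bp, none with a pooled summit. In all, 9 of the 22 are members by another, sub-threshold summit. A thresholded host is thus not the same as a thresholded snoRNA gene.

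Hosts can also be counted without the snoRNA windows. Of 159 same-strand host genes, 32 (20.1%, 14.2 to 27.2) had a thresholded summit in the host window. The share was 2.75% of the 19826 protein-coding genes that host none on the same strand, and 2.89% of all 19985. Genes that host a snoRNA gene only on the opposite strand, such as din-1, count as non-hosts in this paragraph. With hosts on either strand, 35 had a thresholded summit. Ribosomal protein genes took part in both groups: 12 of 14 that host a snoRNA gene (85.7%, 57.2 to 98.2) and 40 of 69 that do not (58%, 45.5 to 69.8) had one, and these intervals overlap. Among other genes the counts were 20 of 145 hosts (13.8%, 8.63 to 20.5) and 506 of 19757 non-hosts (2.56%, 2.35 to 2.79). Hosts of a single snoRNA gene had a summit at 19 of 136 (14.0%), and hosts of 2 or more at 13 of 23 (56.5%, 34.5 to 76.8). Both of these groups include ribosomal protein genes, whose part in the difference was not tested. The most that 1 host held was 4, in nol-56. Host genes were read from the same lists as the members, so these shares too are a description.

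Beyond the 10 strongest peaks, 5 further hosts were ribosomal protein genes. The rpl-24.1 peak (115.7, with D1007.20) lay between that gene and rps-10, at -246 and -364 bp, and the rpl-4 peak (with B0041.9) had 105.04. The rpl-7 peak over F53G12.12 had 76.1, that of rps-29 over B0412.6 and B0412.7 63.0 and that of rps-13 over C16A3.11 58.2. The rps-29 summit was at -86 bp from snt-2, a synaptotagmin gene, and at -481 bp from rps-29. Other hosts included fbxl-2, an F-box protein gene with B0393.10 (150), nap-1, a nucleosome assembly protein gene with D2096.14 (49.1), and Y37E3.8 with Y37E3.21 and Y37E3.22 (48.7). F07A11.15 was the one thresholded gene on the strand opposite its host, din-1, a nuclear receptor corepressor gene, and its summit (63.2) lay at 82 bp from the snoRNA gene and at -29 bp from a din-1 5′ end.

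The 7 free-standing thresholded genes had weaker peaks than the leading hosts, mostly close upstream. T27A8.8 on X had a pooled signal of 147.6 (replicates 100.5 and 50.8, ranks 99 and 139), at -768 bp, with the nearest coding 5′ end, that of T27A8.7, 1061 bp away. M7.15 on IV had 72.7 (43.0 and 33.2, ranks 264 and 241) at -57 bp, with klc-1, a kinesin light chain gene, at -645 bp. F09G2.14 on V had 60.2 (44.6 and 14.8, ranks 251 and 1528) at -52 bp, with F09G2.2 at -284 bp. T27A8.8 stood apart from the other 6 both in signal and in the distance of its summit.

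The other 4 lay near the lower end of the thresholded list. F37F2.4 on I had 48.8 (25.1 and 28.5, ranks 694 and 296) at -238 bp, and Y53F4B.47 on II had 48.4 (26.5 and 25.3, ranks 600 and 355) at -78 bp, between it and cmtr-1, a cap methyltransferase gene at -143 bp. C26C6.13 on I had 48.2 (29.4 and 15.1, ranks 499 and 1391) at -198 bp, with goa-1, a G protein alpha subunit gene, at -3492 bp. F59C6.15 on I had 47.1 (21.2 and 31.1, ranks 1192 and 263) at -52 bp. Replicate 2 ranked 3 of these 4 higher, and replicate 1 ranked C26C6.13 higher.

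Hosted genes could also have a summit at their own 5′ end. ZK994.7 lies 5690 bp inside pxn-1, a peroxidasin gene, and its summit (55.6, replicates 21.6 and 32.0) was at -19 bp from the snoRNA gene. C08D8.3, 3349 bp inside C08D8.1, had its summit (50.6, replicates 22.9 and 24.5) at 40 bp. The gene smy-2 in C33A12.3 counts as a snoRNA gene here by its annotated biotype alone. Its summit (52.0, replicates 38.4 and 15.6) was at 99 bp from its 5′ end. A shorter transcript of the host begins further downstream, so that the summit was at -157 bp from that start. These 3 and the 7 free-standing genes are the 10 whose own 5′ end was nearest.

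Those 10 differed from the other 27 in several measures. Their summits stood at a median of -54.5 bp (-768 to 99) from the snoRNA gene, and the peak overlapped the gene at 7 of 10; at the other 27 the median was -567 bp (-925 to 82), with an overlap at 2. Signal was taken over distinct peaks, which were 10 for the 10 genes and 20 for the 27. Its median was 51.3 (47.1 to 147.6) over the former and 182.9 (48.7 to 1657) over the latter, and the median rank 419.5 and 95. Distance is part of how the 2 kinds were defined, and no test was made of either measure.

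The words in the upstream sequences printed above were chosen after the sequences of these 10 genes had been seen. Within 90 bp upstream on the sense strand, GCGGAACCC with at most 1 mismatch or an exact TGTCGG was present at 6 of the 10 (60%, 26.2 to 87.8): Y53F4B.47, F59C6.15, F37F2.4, ZK994.7, C08D8.3 and smy-2. It was present at 0 of the 27 (upper bound 12.8%). Over the annotation it was found at 44 of 346 snoRNA genes (12.7%), at 23 of 130 free-standing ones (17.7%), at 8 of 33 with an opposite-strand host (24.2%) and at 13 of 183 with a same-strand host (7.10%). Without the 10 genes the words were chosen from, it was found at 38 of 336 snoRNA genes (11.3%). Outside the family, either word was found at 75 of 129 snRNA genes (58.1%, 49.1 to 66.8), 11 of 612 tRNA genes (1.80%) and 169 of 19973 protein-coding genes (0.846%). Most of these snRNA genes held only 1 of the words. Both words together were found at 13 of 129 snRNA genes (10.1%), beside 22 of 346 snoRNA genes (6.36%). A match is a run of letters, and whether it is a proximal sequence element was not tested.

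**Figure D4:**
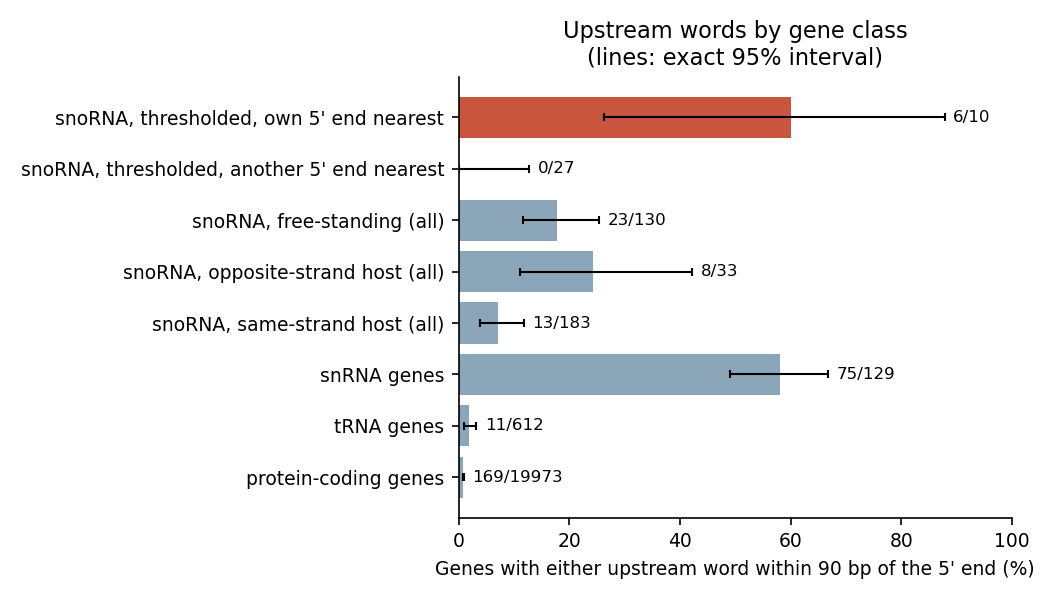
Share of genes with either upstream word within 90 bp of the 5′ end, by gene class; bars are shares, lines exact 95% intervals, and labels counts. The thresholded snoRNA genes nearest to their own summit (6 of 10) and the snRNA genes (75 of 129) have the highest shares. The words were chosen after the sequences of those 10 genes had been seen, so their share and interval are partly fixed by that choice.

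The words kept a nearly constant spacing at the 22 of 346 annotated snoRNA genes that held both. The first word was found at 34 genes, starting at a median of -63 bp (-89 to -10) from the 5′ end. It started 60 to 66 bp upstream at 23 of the 34. Where both were found, in 22 genes, the second began 15 bp after the start of the first at 21, and at 18 of 19 without the 10 genes the words were chosen from. This spacing is seen above in ZK994.7 and smy-2. It is also seen in C08D8.3, whose first word has 2 mismatches and which is therefore not in these counts.

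The strongest pooled summit of each member was also located by whether the gene had a word. Inside same-strand hosts the strongest summit was within 100 bp of the snoRNA 5′ end at 7 of 8 members with a word (87.5%, median position -24.5 bp), and at 21 of 95 without (22.1%, median -466 bp); the word-bearing 8 include 3 of the 10 genes from which the words were chosen. Inside opposite-strand hosts it was so at 4 of 5 with and 4 of 13 without, and at free-standing genes at 6 of 15 (40%) with and 14 of 57 (24.6%) without. The words were picked from genes whose summit is close to their 5′ end, so these counts are partly fixed by that choice. Without those 10 genes the counts with a word were 4 of 5 inside same-strand hosts, 4 of 5 inside opposite-strand hosts and 4 of 12 at free-standing genes, and without a word 21 of 95, 4 of 13 and 12 of 53. The span within 100 bp covers 201 of the 1201 positions of the window (16.7%). Examples below the threshold were Y55F3BR.9 (35.8) and C07A9.14 (25.9) inside genes on the other strand, with summits at 95 and -29 bp, while that of C05H8.3 (34.3) was at 149 bp. Presence of a word was not sufficient for a pooled summit, since 8 of 13, 5 of 8 and 15 of 23 genes with a word were members in the same-strand, opposite-strand and free-standing classes.

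Around the summits themselves, CGCG lay within 50 bp at 14 of 30 member peaks (46.7%), at 239 of 470 non-mitochondrial thresholded peaks (50.9%) and at 9.98% of 29509 other pooled peaks. It was present at 11 of the 20 peaks nearest to another 5′ end and at 3 of the 10 nearest to the snoRNA gene. A run of TTTTTT on either strand was present at 1 of 30 member peaks (3.33%), 16.2% of thresholded peaks and 53.7% of other pooled ones. GAGAGA was found at 3 of the 30, against 21.7% of thresholded peaks, and CTGCGTCT at 0, against 11.1%. Median GC content was 51.5% at the former 20 peaks and 48.5% at the latter 10, against 48.5% over thresholded and 32.7% over other pooled peaks.

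By sequence boxes of the snoRNA genes, 21 of 37 thresholded members (56.8%) carried ACA within the last 8 bases, the position of the box of H/ACA snoRNAs, against 55 of 193 members (28.5%) and 93 of 346 annotated genes (26.9%). Apart from the free-standing C26C6.13, all of these 21 lay inside same-strand hosts, and several shared a peak. The shares are not split by location, and a link between ACA and the peaks was not tested. A C box TGATGA in the first 20 bases together with CTGA in the last 15 was found at 1 of 37, 13 of 193 and 14 of 346; 2 members carried both patterns. Neither pattern was met by 15 of 37 and 241 of 346, so the search leaves many genes without a type, and ACA is a short word. Median gene length was 131, 126 and 130 bases in the same 3 sets.

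Each of the 30 member peaks was overlapped by a peak in both replicate lists, as were 487 of all 491 (99.2%). The thresholded list was itself derived by the irreproducible discovery rate, which compares replicates, so this overlap is largely fixed by that choice. The summit moved by a median of 10.5 bp in replicate 1 and 5 bp in replicate 2, against 9 and 14 bp over the whole thresholded list, and by at most 103 and 96 bp. Counting the strongest 491 peaks of each list, 22 of 30 member peaks were among them in replicate 1 (73.3%, against 84.7% of all) and 25 in replicate 2 (83.3%, against 81.7%). The median ratio of the 2 ranks was 1.37, and 1.35 over all 491.

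The ranks of strong peaks were close in both lists, and those of weak peaks differed more. The largest rank ratio was that of C16A3.11 in rps-13, with a signal of 42.5 at rank 271 in replicate 1 and 9.74 at rank 8485 in replicate 2, a ratio of 31.3. F09G2.14 followed with 6.09, also lower in replicate 2. Y37E3.21 and Y37E3.22, which share a peak, had rank 1938 in replicate 1 and 401 in replicate 2, a ratio of 4.83.

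**Figure D5:**
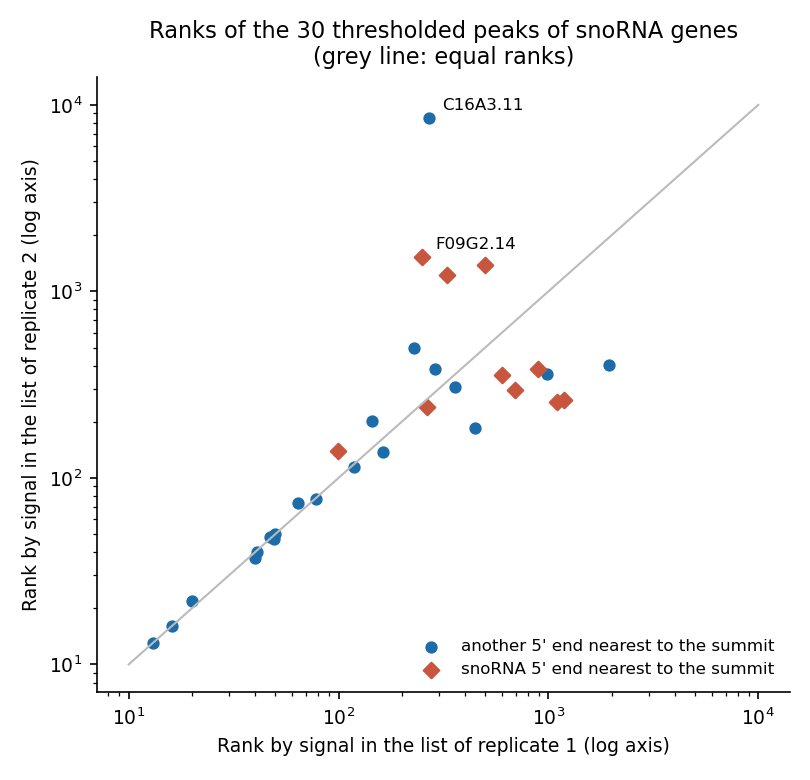
Rank by signal in the list of replicate 1 (x) against replicate 2 (y), both log axes, for the 30 thresholded peaks of snoRNA genes; diamonds are peaks whose nearest 5′ end is the snoRNA gene's, circles the others, and the line marks equal ranks. Ranks lie along the line down to about those of rpl-6 (78 and 77) and spread further down, with C16A3.11 the farthest.

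The proteins that act with snoRNAs were covered as well. All 4 genes of the C/D particle had a thresholded summit, against 2.89% of all protein-coding genes: fib-1, the methyltransferase fibrillarin (signal 73.3, at -80 bp), nol-56 (69.3, -254 bp) and nol-58 (65.4, -320 bp), its scaffold proteins, and snu-13 (60.1, -298 bp), which binds the RNA. The nol-56 peak is also a member peak, since nol-56 is the host of K07C5.11, and its replicate signals were 47.5 and 21.0. These 4 signals lay within a narrow range below the median of all thresholded peaks.

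Of the 4 genes of the H/ACA particle 1 had a thresholded summit, nola-3 (51.9, at -610 bp), which encodes the NOP10 protein. The NHP2 gene Y48A6B.3 and the dyskerin gene dkc-1 had sub-threshold summits of 35.0 and 17.6, and garr-1, the GAR1 gene, had none in the pooled list. Of the 3 assembly genes ruvb-2, an AAA ATPase gene, was thresholded (76.7, -130 bp), while ruvb-1 (25.2) and dao-5 (22.8) were not. Of 10 RNA-processing genes, exos-4.1 (53.5) and exos-2 (50.8), both of the exosome, were thresholded and xrn-2, parn-1 and dbr-1 were not. A last list held 33 genes: translation factors with some other genes, among them icd-1 and icd-2 of the nascent polypeptide complex. Of these 33, 11 were thresholded, led by icd-2 (2345), eef-2 (2148), eef-1A.1 (1534) and iff-2 (533), and 3 host a snoRNA gene. The lists are short, and no test was made of any of them.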

How the data were processed

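The data are ChIP-seq peak lists of tagged ZK546.5 in L2 worms, 2 biological replicates of 1 group. The authors called peaks and background on each replicate and on both together, with a control, and then derived a thresholded list by the irreproducible discovery rate (IDR), as the submitters' deposited records state. The aligner, the caller and its version, the IDR cutoff and the depth of sequencing, not given in the sources used here, are unknown. Each deposited signal value, that of a peak, is the authors' own, is not scaled between lists and was used to rank peaks; the other caller score was not used. The ce10 lists were not used here.

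Positions are on ce11, identical in sequence to WBcel235. Genes came from Ensembl annotation release 115. A summit was assigned to a gene from 1000 bp upstream to 200 bp downstream of an annotated 5′ end. A host is a protein-coding gene whose span contains the whole snoRNA gene. Ribosomal protein genes are the rps, rpl and rla genes with ubl-1 and ubq-2. Trans-splicing is frequent in C. elegans, and an annotated 5′ end may differ from the true start of a transcript. Peaks overlapped with at least 1 bp shared. Intervals of shares are exact Clopper-Pearson 95% intervals. They cover counting error only and take genes as independent although they share peaks and hosts. No test was run, since the lists chose the members. Python 3.11.15, numpy 2.4.6, pandas 2.3.3, scipy 1.17.1 and matplotlib 3.10.9 were used, and window assignment and word search were checked on planted data.

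Members, gene lists and sequence words were chosen with earlier results of these data known. Named by rule were the snoRNA genes at the 10 strongest member peaks, all free-standing thresholded members, the 3 weakest thresholded and 5 strongest other members, the 3 peaks whose ranks differed most between replicates, all snoRNP protein genes, up to 4 genes of other lists and genes that share a peak with these. Other named genes were chosen after their values were seen. Of the listed names, 1 RNA-processing gene and 3 translation factors were not found in the annotation and are left out. Alternatives covered other windows, the stronger part of the list and single replicates.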

Additional observations from a re-analysis of the deposited data

How the results depend on the processing

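Of 48 alternative values for the counts, 37 stayed within 1.5 times. A window of 500 bp upstream gave 18 thresholded snoRNA genes in place of 37, 12 inside a protein-coding gene in place of 30, and 10 that share the summit with their host in place of 28; a window of 2000 bp gave 43 of the last kind. The stronger part of the thresholded list (246 peaks) gave 20 genes, 19 of them hosted and 1 free-standing in place of 7. Keeping only genes whose own 5′ end is nearest to the summit gave 10, of which 3 were hosted and 1 shared the summit with its host. Of the 30 member peaks 18 were among the strongest 491 of both replicate lists. The strongest 491 peaks of 1 replicate in place of the thresholded list gave 32 to 34 genes, 26 to 29 hosted, 5 to 6 free-standing, 25 to 26 that share the host's summit and 31 to 32 hosts. With the upstream words, 0 or 2 mismatches or 150 bp of sequence, chosen after seeing the data, gave 5, 6 and 6 of 10 genes. Leaving out the 10 genes the words came from, also chosen after seeing the data, moved the shares of word-bearing members with a close summit from 87.5%, 80% and 40% to 80%, 80% and 33.3%. The cause of these shifts was not tested. No paired analysis was possible because the samples form a single group. Read depth is unknown, the threshold decides the weakest members, and window counts cannot assign a peak to a snoRNA gene or its host.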
